A study of Mus musculus with 6 samples.

Results

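The kinases that phosphorylate serine/arginine-rich (SR) splicing factors, and the Tra2 proteins that are among their targets, were followed here by the RNA of 10 genes, namely the CDC2-like kinases *Clk1*, *Clk2*, *Clk3* and *Clk4*, the SR protein kinases *Srpk1* and *Srpk2*, *Prpf4b*, *Dyrk1a*, *Tra2a* and *Tra2b*. They were picked by symbol from a table of 52089 symbols, in which all 10 were present with 125 of 168021 transcript accessions. The cells were primary brite adipocytes, grown from the stromal-vascular cells of inguinal white fat of 129SvEv mice (129S6 in the study's text), brought to adipogenesis over 2 days and differentiated for another 1 day, with rosiglitazone, which the study's methods list for the induction of brite cells as well. 3 libraries came from *Ctcflos* KD, in which 50 nM of the LNA gapmer ASO1 against transcript 1 of the long noncoding RNA *Ctcflos* was transfected, and 3 from NC ctrl, which received 50 nM of a nontargeting LNA gapmer, and total RNA of both groups was harvested 24 h later. Both groups had the same strain, rosiglitazone and transfection, and with 1 targeting oligonucleotide the loss of *Ctcflos* and other effects of ASO1 cannot be told apart. Whether the 3 libraries of a group are separate cell preparations is not given in the labels, so that p-values measure the spread between these libraries.

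SRPK proteins phosphorylate the arginine/serine domains of SR proteins mainly in the cytoplasm, which lets the carrier transportin-SR bring them into the nucleus. CLK proteins act in the nucleus, where further phosphorylation releases SR proteins from speckles to sites of splicing. PRPF4B (also PRP4 kinase) and DYRK1A are related nuclear kinases with spliceosomal or speckle substrates. TRA2A and TRA2B bind GAA-rich exon sequences and promote inclusion of these exons, and both genes hold a poison exon, an alternative exon with a stop codon that sends the transcript to decay. In fat cells, insulin reaches this system through AKT kinases, which phosphorylate CLK1 and SRPK2.

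Sequences from Gencode vM21 (GRCm38) show alternative pieces of transcripts of these genes. Among them, the *Tra2a* poison exon was not analysed and inclusion of the *Clk1* exon could not be read from the values. The first is the 91-base exon of *Clk1* at chr1:58420121-58420211 (minus strand), which lies in the coding region and is absent from the skipped form. The next pair shows the start of the poison exons of *Tra2a* (chr6:49252965-49253108, minus strand) and *Tra2b* (chr16:22259181-22259261, minus strand), from the first base of the exon to the in-frame stop codon in capitals. The last is the border of exon 1 and intron 1 of *Tra2a* (chr6:49263778-49263867, minus strand), in which capitals mark the last 30 bases of exon 1 and lower case the first 60 bases of the intron.
Clk1 alternative exon: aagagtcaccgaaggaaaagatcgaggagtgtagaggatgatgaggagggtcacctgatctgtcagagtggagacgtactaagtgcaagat
Tra2a poison exon to its stop: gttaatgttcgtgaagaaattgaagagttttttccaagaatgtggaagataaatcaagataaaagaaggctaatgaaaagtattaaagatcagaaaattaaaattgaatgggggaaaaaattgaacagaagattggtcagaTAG
Tra2b poison exon to its stop: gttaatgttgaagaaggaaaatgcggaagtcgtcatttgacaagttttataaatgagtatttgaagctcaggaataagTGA
Tra2a exon 1 and intron 1: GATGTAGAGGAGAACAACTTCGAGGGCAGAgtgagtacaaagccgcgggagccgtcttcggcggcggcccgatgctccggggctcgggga

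The values are RPKM, that is, reads per kilobase of an accession and per mio mapped reads. Low values were whole multiples of the value of 1 read, which gave 60.8 to 79.2 mio reads per library. This is more than the approximate reads per sample in the study's methods. Whether both mates of a read pair were counted was not tested. For an accession 1 kb long, a single read was worth 0.0126 to 0.0165 RPKM. The targeted RNA *Ctcflos* (1300015D01Rik) had 0.0969, 0.0705 and 0.210 RPKM in KD and 0.748, 0.751 and 0.840 RPKM in NC ctrl, so that replicate 3 kept the most *Ctcflos* among the KD libraries. Markers of the labelled cell type were present: 7 adipocyte genes summed to 4227 to 5629 RPKM in KD and 5899 to 6556 RPKM in NC ctrl, and 5 brite genes to 20.3 to 36.1 and 38.1 to 87.9 RPKM, with KD below NC ctrl in both lists. Markers of progenitors (6 genes) summed to 190 to 410 RPKM in KD and 290 to 467 RPKM in NC ctrl, and those of smooth muscle (3 genes) to 17.6 to 49.6 and 32.7 to 86.4 RPKM. The macrophage and leukocyte list (4 of 5 genes in the table) gave 6.61 to 16.1 and 8.04 to 27.3 RPKM, the endothelial list (4 genes) 0.647 to 0.922 and 1.07 to 1.35 RPKM. Epithelial and mesothelial genes (5 and 2) summed to at most 0.523 RPKM, and *Epcam*, *Krt8*, *Krt18*, *Krt14*, *Cdh1*, *Msln*, *Upk3b* and *Ptprc* each had a mean under 0.1 RPKM. Within each group, KD replicate 3 and NC ctrl replicate 2 had the highest macrophage and smooth muscle sums. They also had the lowest brite, progenitor and endothelial sums. The adipocyte sum was the highest of KD in KD replicate 3 and the lowest of the controls in NC ctrl replicate 2. The part of these cell types in the results below was not tested, and in bulk RNA fewer cells of a type and less RNA per cell cannot be told apart.

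All 10 members were expressed in control cells. By the RefSeq mRNA, which allows levels per length, the order in NC ctrl was *Tra2a* (19.1 to 22.4 RPKM), *Tra2b* (12.0 to 13.5), *Prpf4b* (10.8 to 11.1), *Srpk1* (6.75 to 9.05), *Clk1* (6.21 to 7.12), *Dyrk1a* (6.46 to 6.93), *Clk4* (3.72 to 4.95), *Srpk2* (3.73 to 3.88), *Clk3* (3.10 to 3.28) and *Clk2* (1.43 to 1.56). The control ranges of *Srpk1*, *Clk1* and *Dyrk1a* overlapped from one to the next, as did those of *Clk4* and *Srpk2*, whereas the other neighbours in this order were separate. *Clk2* was the weakest member in every control library. With the mean over all accessions of a gene, *Prpf4b* (12.5 to 13.0 RPKM) came ahead of *Tra2a* (9.41 to 11.0) and *Tra2b* (7.21 to 7.92).

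To ask how the kinases and Tra2 genes responded to *Ctcflos* KD, the RPKM of a gene, averaged over its accessions, was tested on the log2(RPKM + 1) scale with limma-trend, adjusted over 11701 genes that reached an average of 1 RPKM. Fold changes on this scale understate the change of weak genes. *Srpk1* and *Srpk2* fell and *Tra2b* rose (adjusted p under 0.05), while *Clk1*, *Clk2*, *Clk3*, *Clk4*, *Prpf4b*, *Dyrk1a* and *Tra2a* did not pass. Of all genes tested, 24.0% passed, 11.5% upward and 12.4% downward, and 3 of 10 members is close to that background. The median log2 fold change of the members was 0.15, against 0.03 over all genes. Libraries of both groups did not overlap in 6 members (4 higher, 2 lower in KD) and in 44.8% of all genes.

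**Figure D1:**
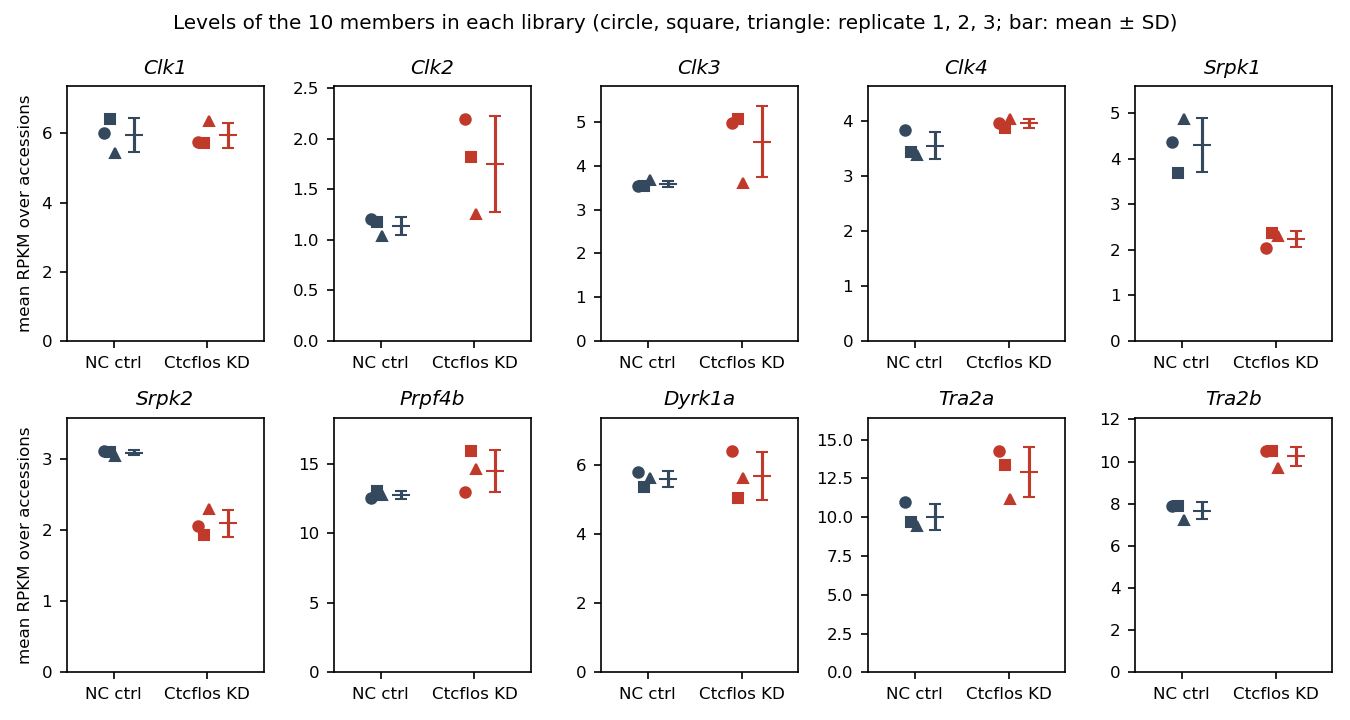
Mean RPKM over accessions (vertical axis, linear from 0) of each member in the 3 NC ctrl and 3 Ctcflos KD libraries, with symbols for the replicate numbers and a bar for mean ± SD. Srpk1 and Srpk2 lie below the controls in all KD libraries, Tra2b lies above them, and Clk2 and Clk3 are near the controls in KD replicate 3 alone.

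*Srpk1*, the kinase that readies SR proteins for import into the nucleus, had 2.04, 2.36 and 2.29 RPKM in KD and 4.36, 3.69 and 4.87 RPKM in NC ctrl. Every KD library was below every control, and 51.9% of the control mean was left (2.23 ± 0.169 against 4.30 ± 0.590 RPKM, SD, n = 3 each). The log2 fold change was -0.71 (SE 0.11, adjusted p = 0.0074 from limma). The gene lies on the minus strand at chr17:28587648-28622709, spans 35.1 kb and overlaps no other annotated gene, although 167 bases of its transcript ENSMUST00000130643 are 95.2% identical to *Zscan26*.

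The lower level of *Srpk1* was shared by nearly all of its accessions. RPKM was lower without overlap in 12 of its 13 accessions, with KD to control ratios from 0.426 to 0.767 over all of them. Accessions of a gene share reads, so that such counts, here and for the members below, are not of independent transcripts. The share of all accessions with separate RPKM was not counted. On the RefSeq mRNA NM_016795 (2454 nt), 695, 830 and 638 reads were recovered in KD and 1507, 1313 and 1397 in NC ctrl. AK164733, whose recovered length of 4956 nt is that of the intron-retaining transcript ENSMUST00000126683, had 1.16, 1.42 and 1.27 RPKM in KD and 2.35, 2.05 and 2.50 RPKM in NC ctrl. An equal length is no proof of identity, but this accession, too, had all KD libraries below the controls. Of the share of an accession in the summed RPKM of the gene, AK161346 held 4.88, 4.97 and 4.85% in KD and 6.24, 5.75 and 5.89% in NC ctrl, separate between groups but not called over all accessions (adjusted p = 0.17 from limma). AK015754, with the largest share over both groups, held 15.6, 16.1 and 15.9% against 14.8, 15.4 and 15.3%, whereas in NC ctrl AK140761 was ahead on average with 15.6, 16.1 and 15.2% (15.2, 15.1 and 15.5% in KD). *Srpk1* was called under all 12 alternatives tried, with adjusted p from 0.003 to 0.049 (limma).

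*Srpk2*, the paralog of *Srpk1* and a known target of AKT, had 2.06, 1.93 and 2.30 RPKM in KD and 3.12, 3.10 and 3.05 RPKM in NC ctrl. The groups were separate, and the KD mean was 67.9% of the control mean (2.10 ± 0.190 against 3.09 ± 0.0351 RPKM, SD, n = 3 each). The log2 fold change was -0.40 (SE 0.089, adjusted p = 0.018 from limma). RPKM was lower without overlap in 16 of 19 accessions, and on NM_009274 (6436 nt) 1174, 1147 and 1112 reads were recovered in KD against 1946, 1900 and 1564 in NC ctrl. With a replicate block by label number the adjusted p was 0.052 (limma). With 1 library left out it ranged from 0.0049 to 0.084 (limma) and stayed under 0.05 only without KD replicate 3.

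The *Srpk2* locus (chr5:23503264-23684617, minus strand) is the longest of the 10, with 181.4 kb. The 3′ end of its coding transcript ENSMUST00000088392 shares 972 bases with *Kmt2e*, a SET domain gene on the opposite strand, and whether the counting used the strand is not stated. *Kmt2e* itself had 3.23, 2.53 and 2.35 RPKM in KD and 2.55, 1.95 and 2.24 RPKM in NC ctrl (adjusted p = 0.28 from limma), with overlap between groups.

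For the called genes with a single promoter in the reference, *Srpk1* (chr17:28622522-28622771, minus strand) and *Tra2b* (chr16:22266006-22266255, minus strand), the letters are given from RefSeq (GRCm38.p6) as the 250 bases before the RefSeq start, with the searched motifs in capitals. The Gencode gene *Srpk1* starts further upstream, so that 188 of the 250 bases of its window lie inside the gene as placed above, against 0 for *Tra2b*.
Srpk1 promoter: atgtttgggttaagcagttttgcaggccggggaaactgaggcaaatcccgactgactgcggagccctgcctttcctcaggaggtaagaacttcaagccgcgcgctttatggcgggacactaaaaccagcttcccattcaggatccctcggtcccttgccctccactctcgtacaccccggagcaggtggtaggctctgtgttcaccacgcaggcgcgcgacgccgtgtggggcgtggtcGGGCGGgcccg
Tra2b promoter: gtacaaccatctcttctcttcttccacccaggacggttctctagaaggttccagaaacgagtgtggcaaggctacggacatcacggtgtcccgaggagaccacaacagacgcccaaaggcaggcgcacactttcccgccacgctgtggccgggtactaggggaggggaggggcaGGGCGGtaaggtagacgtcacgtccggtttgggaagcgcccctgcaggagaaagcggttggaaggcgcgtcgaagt
On both strands, the GC box GGGCGG, the CCAAT box, the TATA box, the E-box CACGTG and the cAMP response element TGACGTCA were searched, none of which contains another. RefSeq promoters were found for 9 of the members (13 windows), and GGGCGG was in 10 of these windows, against 32.7% of all 32851 windows. Each of the printed windows held GGGCGG at 1 place and none of the other letters. TGACGTCA was found in *Tra2a* and *Clk4* (1.55% of all windows), the letters CCAAT in *Clk2*, *Dyrk1a*, *Srpk2* and *Tra2a* (33.8%), CACGTG in *Clk2* (6.02%), and the TATA box, searched as TATAAA, in no window of a member (12.4%). A match is not shown to be a bound site.

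*Tra2b*, the splicing activator TRA2-beta, had 10.5, 10.5 and 9.72 RPKM in KD and 7.89, 7.92 and 7.21 RPKM in NC ctrl. All KD libraries were above all controls, at 134% of the control mean (10.2 ± 0.455 against 7.67 ± 0.399 RPKM, SD, n = 3 each). The log2 fold change was 0.38 (SE 0.098, adjusted p = 0.03 from limma). The RefSeq mRNA NM_009186 (2135 nt) held 2770, 2785 and 2139 reads in KD and 2256, 2220 and 1614 in NC ctrl. The log2 fold change stayed between 0.33 and 0.48 under all 12 alternatives, but *Tra2b* was called in only 4 of them. The adjusted p was 0.11 with scaling of the libraries by the median of ratios, 0.077 with a replicate block, and 0.013 to 0.14 with 1 library left out (limma), where it stayed under 0.05 only without KD replicate 3.

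Reads were spread unevenly over *Tra2b* (chr16:22244549-22266005, minus strand). The coding transcript ENSMUST00000161286 (3403 nt) held 2899, 2851 and 2233 reads in KD and 2340, 2333 and 1664 in NC ctrl, whereas ENSMUST00000023564 (1369 nt), which contains most of the same coding exons, held 192, 253 and 124 against 156, 156 and 121 reads. The shorter transcript thus had 5.55 to 8.87% of the reads of the longer one. Bases 230 to 1096 of ENSMUST00000161286 are 98.7% identical over 867 bases to the processed pseudogene *Gm10254*, and *Gm14639*, *Gm6439* and *Gm11957* match at 95.7 to 96.4%, so that reads from this stretch can be shared with these copies. Their part in the uneven coverage was not tested.

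The accessions tied to the *Tra2b* poison exon had higher RPKM in KD, like the mRNA. Their RPKM counts reads over the whole accession, so that it is no measure of the poison exon itself. ENSMUST00000162413, the decay transcript with the poison exon, had 2.11, 2.84 and 1.75 RPKM in KD and 1.48, 1.71 and 1.65 RPKM in NC ctrl, but its recovered length of 1590 nt is not that of the transcript in vM21 (1687 nt). AK080378, with the length of the intron-retaining transcript ENSMUST00000160579 that runs on past the poison exon (1376 nt), had 6.28, 5.41 and 5.43 RPKM in KD and 3.95, 4.42 and 4.51 RPKM in NC ctrl. Relative to the RefSeq mRNA this was 36.5, 31.1 and 32.9% in KD and 29.2, 33.7 and 37.5% in NC ctrl, and these values overlapped (exact two-sided permutation test, p = 1). Of 13 accessions, 11 had higher RPKM in KD without overlap and among the 12 tested for their share the groups overlapped in each.

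**Figure D2:**
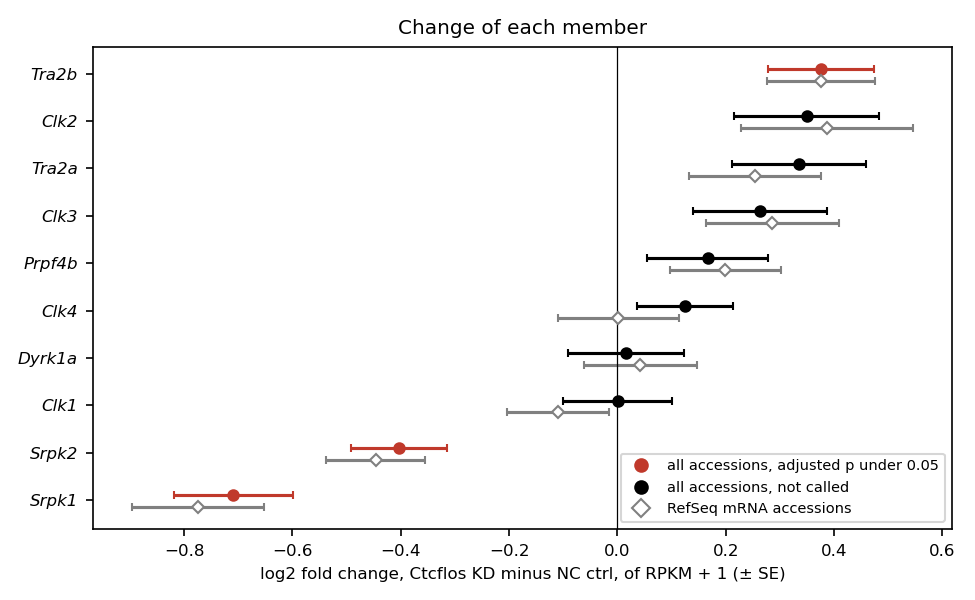
Log2 fold change of RPKM + 1 (KD minus NC ctrl, horizontal axis, bars are SE) of each member from all accessions (circles, red where the adjusted p was under 0.05) and from RefSeq mRNA accessions (open diamonds). Srpk1 (-0.71) and Srpk2 (-0.40) stand to the left and Tra2b (0.38) to the right, and the diamonds of Clk1 and Clk4 lie further left than their circles.

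*Tra2a*, the paralog of *Tra2b*, had 14.3, 13.3 and 11.2 RPKM in KD and 11.0, 9.67 and 9.41 RPKM in NC ctrl. The groups did not overlap, but KD replicate 3 was close to the highest control, and the log2 fold change of 0.34 (SE 0.12) did not pass (adjusted p = 0.084 from limma). Without KD replicate 3 it passed at 0.43 (adjusted p = 0.018 from limma). In that setting 23.3% of all genes were higher, against 11.5% with all libraries.

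The accessions of *Tra2a* differed from each other. The RefSeq mRNA NM_198102 (1828 nt) had 25.7, 26.1 and 21.7 RPKM in KD and 22.4, 19.6 and 19.1 RPKM in NC ctrl, with overlap. AK076230 (3788 nt), by contrast, had 5.93, 4.09 and 3.57 RPKM in KD and 2.42, 2.57 and 2.32 RPKM in NC ctrl, on 1696, 1164 and 821 against 715, 772 and 552 reads. Its recovered length is that of ENSMUST00000204013, a single-exon transcript that starts with exon 1 and runs through the border printed above into intron 1 (chr6:49260243-49264030). Expressed per RefSeq mRNA, AK076230 was at 23.1, 15.7 and 16.4% in KD and 10.8, 13.1 and 12.1% in NC ctrl. Every KD library was above every control, with the largest value in KD replicate 1 (p = 0.1 by an exact permutation test, two-sided, which cannot go lower with 3 against 3 libraries). AK076230 was chosen after its values were seen, so that this p adds no separate support.

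AK170599 (3782 nt), AK076606 (2945 nt) and AK171788 (2921 nt) resembled AK076230, with KD to control ratios of 1.86, 1.77 and 1.90 against 1.20 for the RefSeq mRNA. AK148552 and AK005187, of 1100 and 1096 nt, lay between with 1.54 and 1.52. Accessions of a gene share reads, so that these are not independent. In shares of the summed RPKM, 6 of 10 accessions of *Tra2a* were higher and 4 lower in KD without overlap between groups, against 14.0% of all 64643 accessions tested in either direction. The shares of a gene add up to a fixed total in each library, so that higher shares of some accessions lower those of others. The 10 shares are therefore not separate results. Of the lower ones, AK164994 (962 nt) held 24.6, 27.2 and 26.6% in KD and 29.2, 27.6 and 27.7% in NC ctrl, AK089980 18.3, 19.8 and 19.7% against 20.7, 20.5 and 20.6%, and NM_198102 18.0, 19.5 and 19.5% against 20.5, 20.2 and 20.3%. AK171708 held 11.4, 12.2 and 12.2% in KD and 12.6, 12.6 and 12.7% in NC ctrl. Its recovered length of 3040 nt is that of the intron-retaining transcript ENSMUST00000204818. None of these shares passed after adjustment over all accessions, with 0.35 as the smallest adjusted p of *Tra2a* (limma). The poison exon transcript of *Tra2a* was not analysed here.

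**Figure D3:**
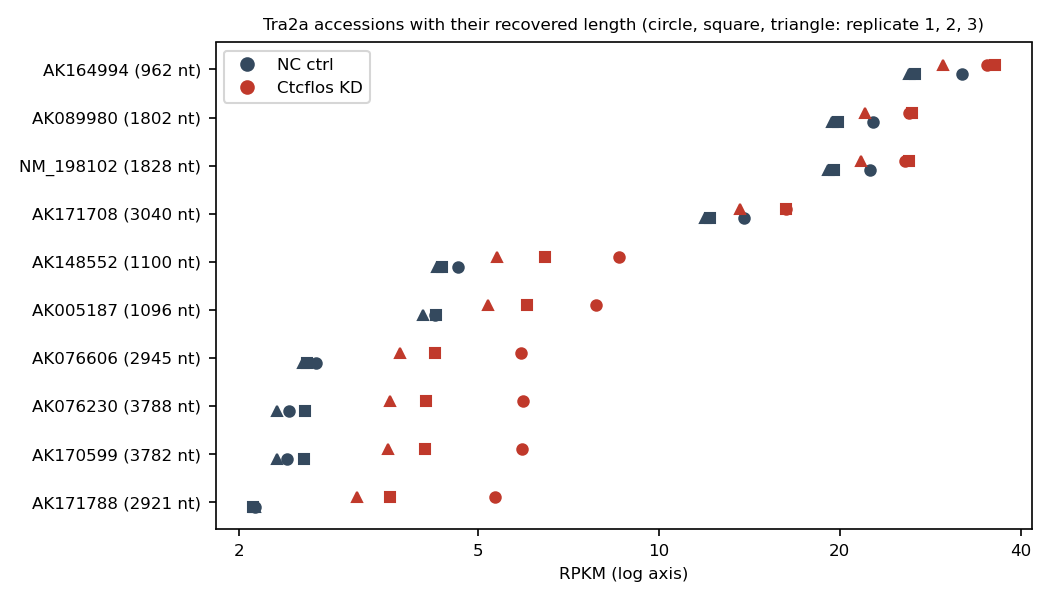
RPKM (log axis) of the 10 Tra2a accessions in each library, ordered by the control mean, with the recovered length in nt. The 6 accessions at the bottom are separated between groups, with KD replicate 1 (circle) the highest, whereas the 4 abundant accessions at the top overlap.

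The CLK genes did not pass the test at the gene level, and their 4 patterns differed. *Clk2* had 2.19, 1.82 and 1.25 RPKM in KD and 1.20, 1.18 and 1.04 RPKM in NC ctrl, with a log2 fold change of 0.35 (SE 0.13, adjusted p = 0.092 from limma). *Clk3* had 4.97, 5.06 and 3.61 RPKM in KD and 3.55, 3.54 and 3.67 RPKM in NC ctrl, with 0.26 (SE 0.12, adjusted p = 0.15 from limma). In both, replicates 1 and 2 of KD lay above all controls. KD replicate 3 lay just above the controls for *Clk2* and among them for *Clk3*. This library also differed from the other KD libraries in the marker sums given above, and their part in its values was not tested. Without KD replicate 3, *Clk2* reached 0.49 (adjusted p = 0.0076 from limma) and *Clk3* 0.39 (adjusted p = 0.0086 from limma). In that setting 23.3% of all genes were higher, against 11.5% with all libraries.

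*Clk2*, a kinase that insulin signalling stabilises in the liver, lies at chr3:89164795-89176921. Its RefSeq mRNA NM_007712 (2310 nt) held 517, 431 and 213 reads in KD and 281, 275 and 207 in NC ctrl. The accession with the largest share, the decay transcript ENSMUST00000128318, took 10.8, 11.1 and 9.68% of the summed RPKM in KD and 10.5, 9.95 and 11.1% in NC ctrl. Of 15 accessions, 6 were higher in KD without overlap, among them the intron-retaining transcripts ENSMUST00000138822, ENSMUST00000133323 and ENSMUST00000153255, but for each of the 11 shares tested the groups overlapped.

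In *Clk3* (chr9:57750624-57765860, minus strand) 3 of 7 shares were separate between groups, by small steps. NM_007713 and AK146942, which carry identical values, each held 12.8, 13.1 and 12.9% in KD and 12.5, 12.5 and 12.8% in NC ctrl, and AK145880 held 14.8, 14.9 and 15.2% against 15.4, 15.4 and 15.2%. AK009908, with the largest share, was at 20.1, 19.6 and 17.8% in KD and 19.9, 17.5 and 18.5% in NC ctrl. The last 415 bases of the *Clk3* transcript ENSMUST00000065330 are shared with *Edc3*, a decapping factor gene on the opposite strand, which had 2.94, 2.00 and 1.80 RPKM in KD and 2.18, 2.06 and 2.22 RPKM in NC ctrl (adjusted p = 0.9 from limma).

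*Clk1*, a kinase whose own transcript is stored with retained introns in the nucleus of other cells, had 5.76, 5.71 and 6.37 RPKM in KD and 6.01, 6.41 and 5.43 RPKM in NC ctrl. The libraries overlapped and the log2 fold change was 0.00 (SE 0.10, adjusted p = 1 from limma), and its sign depended on the processing. Its accessions differed from each other. AK042106 (2334 nt) had 4.53, 4.66 and 5.10 RPKM in KD and 2.87, 3.41 and 3.49 RPKM in NC ctrl, on 799, 817 and 723 against 522, 631 and 512 reads. The RefSeq mRNA NM_001042634 (1830 nt) had 6.05, 6.18 and 6.31 RPKM in KD and 6.94, 7.12 and 6.21 RPKM in NC ctrl. AK042106 per RefSeq mRNA was 74.9, 75.5 and 80.8% in KD and 41.3, 47.9 and 56.1% in NC ctrl, with no overlap (p = 0.1 by the same exact permutation test). AK042106 was named for a share separate between groups, so that this p adds no separate support.

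In shares of the summed RPKM of *Clk1*, AK042106 held 6.55, 6.80 and 6.67% in KD and 3.97, 4.43 and 5.35% in NC ctrl, a difference of 2.09 percentage points. Tested against the gene's own mean, its adjusted p over all accessions was 0.27, and limma diffSplice, tried as an alternative, called it at 0.036 with a pseudocount of 1 and at 0.02 with 0.1. It was the only one of the 108 member accessions tested that diffSplice called with either pseudocount, while 0.201% and 0.207% of all accessions were called. The test of shares with limma called 0 of 64643 accessions (0%), of which 6086 (9.41%) had an unadjusted p under 0.05, and diffSplice called 130 and 134. Among the members, 16 of the 108 accessions had an unadjusted p under 0.05, 7 in *Clk1*, 7 in *Tra2a* and 2 in *Srpk1*.

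The intron-retaining transcript ENSMUST00000123580 (chr1:58412000-58416765, 2102 nt) and AK146091 (2105 nt) held nearly the same reads, with 792, 756 and 651 in KD and 709, 710 and 548 in NC ctrl for the former. The share of ENSMUST00000123580 was 7.21, 6.99 and 6.67% in KD and 5.99, 5.54 and 6.36% in NC ctrl, that of AK146091 7.20, 7.01 and 6.67% against 5.98, 5.55 and 6.35%, and both were higher in KD without overlap. The intron-retaining transcript ENSMUST00000135380, with the largest mean share of *Clk1* over both groups, overlapped between groups and held 9.66, 11.1 and 9.19% in KD and 9.87, 11.4 and 11.2% in NC ctrl. The lower shares were those of NM_001042634 with 8.75, 9.02 and 8.26% in KD against 9.62, 9.26 and 9.53%, AK076199, NR_027853 and the decay transcript ENSMUST00000151338. For AK042106 no structure was at hand, so that the part of *Clk1* behind it was not analysed here.

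Inclusion of the printed *Clk1* exon could not be read from this table. NR_027853 differs from NM_001042634 by the 91 bases of that exon, and reads of both accessions differed by only 5, 4 and 0 in KD and 1, 2 and 2 in NC ctrl. The ratio of these accessions therefore carries no measure of skipping. The study names *Clk1* among the transcripts spliced differently after *Ctcflos* KD, from a test of splice junctions in its deep sequencing. RPKM hold no junction reads, so that this call was not tested here.

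**Figure D4:**
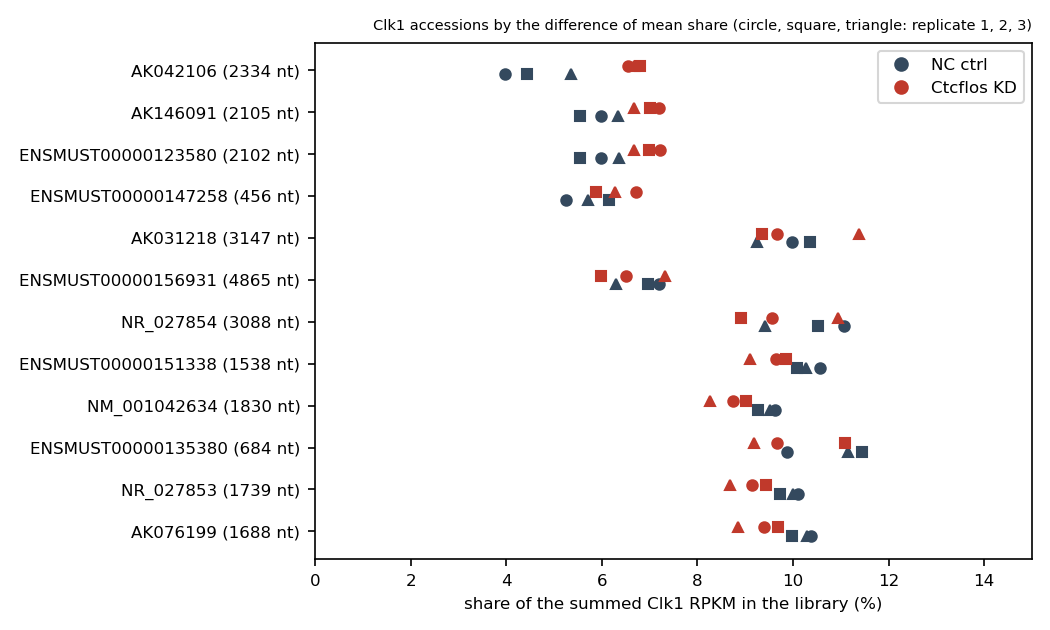
Share of each Clk1 accession in the summed Clk1 RPKM of a library (percent, horizontal axis), ordered by the difference of the mean share, with the recovered length in nt. AK042106, AK146091 and ENSMUST00000123580 at the top have all KD libraries to the right of all controls, and 4 accessions of the lower part, among them NM_001042634, have them to the left.

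*Clk4*, the closest paralog of *Clk1*, had 3.97, 3.88 and 4.03 RPKM in KD and 3.83, 3.44 and 3.38 RPKM in NC ctrl. The groups were just separate, and the log2 fold change of 0.12 (SE 0.089) did not pass (adjusted p = 0.33 from limma). The RefSeq mRNA alone gave 0.00 (SE 0.11, adjusted p = 0.99 from limma), with 4.12, 4.10 and 4.17 RPKM in KD and 4.95, 3.72 and 3.81 RPKM in NC ctrl. Of the 7 accessions with higher RPKM in KD without overlap, at chr11:51261730-51281766, 3 are decay and 3 intron-retaining transcripts and 1 is the clone AK155226. ENSMUST00000153414 had 5.67, 6.38 and 5.63 RPKM in KD and 5.06, 4.61 and 4.90 RPKM in NC ctrl, and ENSMUST00000126131 had 5.44, 5.71 and 5.26 against 4.79, 4.30 and 4.65 RPKM. ENSMUST00000146776, with the largest share, had 7.31, 7.79 and 7.20 RPKM in KD and 6.47, 6.13 and 6.61 RPKM in NC ctrl.

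Among the *Clk4* shares tested, the 3 that were separate between groups were lower in KD. AK155226, too weak for the test, had a separate share that was higher. It held 1.21, 1.38 and 1.35% in KD and 0.851, 1.04 and 1.09% in NC ctrl. NM_007714 held 6.92, 7.05 and 6.90% in KD and 8.60, 7.21 and 7.50% in NC ctrl, AK013974 6.82, 6.85 and 6.91% against 9.27, 7.39 and 7.49%, and ENSMUST00000093132 6.93, 6.94 and 6.81% against 8.46, 7.01 and 7.36%. NC ctrl replicate 1 stood highest in each of these 3. With 0.57 as the smallest adjusted p in *Clk4* (limma), no share passed. *BC049762*, which lies on the opposite strand within the same locus, had at most 0.481 RPKM in any library.

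*Prpf4b*, the spliceosomal kinase PRP4, and *Dyrk1a*, a kinase of nuclear speckles, did not pass. *Prpf4b* had 12.9, 15.9 and 14.6 RPKM in KD and 12.5, 13.0 and 12.7 RPKM in NC ctrl, with a log2 fold change of 0.17 (SE 0.11, adjusted p = 0.3 from limma). Its KD libraries overlapped the controls through replicate 1, whereas its RefSeq mRNA had 11.6, 13.9 and 12.7 RPKM in KD against 11.1, 11.0 and 10.8 RPKM without overlap. The clone AK021274, with the largest share, held 17.7, 19.1 and 18.2% in KD and 17.6, 18.7 and 19.1% in NC ctrl.

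*Dyrk1a* had 6.40, 5.03 and 5.61 RPKM in KD and 5.79, 5.34 and 5.63 RPKM in NC ctrl, with the highest and the lowest value both in KD, and a log2 fold change of 0.02 (SE 0.11, adjusted p = 0.93 from limma). All of its 12 accessions overlapped in RPKM. 3 of them, AK052390 (12.7, 13.1 and 12.7% in KD, 12.4, 12.7 and 12.4% in NC ctrl) and the RefSeq mRNAs NM_001113389 and NM_007890, had higher shares without overlap, by 0.206 to 0.370 percentage points. With 125.5 kb, *Dyrk1a* is the second longest locus among the members after *Srpk2*.

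The accessions of all members were then classed by annotation. Of 21 tested accessions that are intron-retaining by name or by equal length, 3 had higher and 1 lower shares in KD without overlap, with a median difference of 0.02 on the log2 scale. Of 7 decay transcripts, 0 were higher and 1 was lower (median 0.02). Of 12 RefSeq mRNAs, 3 were higher and 3 lower (median 0.00), of 14 other coding transcripts 0 and 3 (median -0.03), and of 54 other accessions 10 and 5 (median -0.01). These classes rest on an exact length. AK170599 (3782 nt) and AK146091 (2105 nt), both higher, thus counted among the 54 others. Their reads nearly equalled those of AK076230 and ENSMUST00000123580, which were classed as intron-retaining. Over all 108 member accessions tested, 29 shares were without overlap (16 higher, 13 lower), of which *Clk1* held 7 and *Tra2a* 10, against 14.0% of all accessions. Shares within a gene are linked, so that these counts are not of independent accessions.

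Genes that act with these kinases were described by lists. Among 17 SR proteins and speckle or early spliceosome proteins, 16 were tested, of which 4 rose and 1 fell, against 11.5% and 12.4% of all genes, with a median log2 fold change of 0.26 against 0.03 over all genes. *Srsf7* rose by 0.53 (SE 0.11, adjusted p = 0.015 from limma), from 8.72, 8.56 and 8.17 RPKM in NC ctrl to 13.5, 13.3 and 11.3 RPKM in KD. *U2af2*, which recognises the polypyrimidine tract, rose by 0.45 (adjusted p = 0.027), *Srsf2* by 0.40 (adjusted p = 0.048) and *Srsf11* by 0.35 (adjusted p = 0.043, all from limma). *Snrnp70*, the U1 snRNP protein and a target of SRPK1, fell by 0.68 on the log2 scale, with 2.61, 2.90 and 3.99 RPKM in KD and 5.62, 5.86 and 5.30 RPKM in NC ctrl (adjusted p = 0.013 from limma). *Srsf1* (log2 fold change 0.31), *Srsf3* (0.13), *Srsf5* (-0.04) and *Srrm2* (0.51) did not pass, the last with 20.4 RPKM in KD replicate 1 and 7.63 and 8.58 RPKM in the other KD libraries. The 4 rises came down to *Srsf7* alone with scaling by the median of ratios, where 8.67% of all genes were higher. When 1 library was left out, 0 to 6 passed, against 1.11 to 23.3% of all genes. *Snrnp70* was no longer called without NC ctrl replicate 1 and without NC ctrl replicate 3, where 2.47% and 2.04% of all genes were lower.

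Of 17 further kinases and cyclins, 14 were tested, of which 1 rose (*Dyrk2*) and 1 fell (*Akt2*), against 11.5% and 12.4% of all genes (median log2 fold change 0.13 against 0.03). *Dyrk2*, a kinase of the same family as *Dyrk1a*, rose by 0.99 (SE 0.16, adjusted p = 0.0083 from limma), from 6.53, 5.41 and 6.02 RPKM in NC ctrl to 16.0, 13.0 and 10.1 RPKM in KD. *Akt2*, the insulin-responsive kinase upstream of SRPK and CLK proteins, fell by 0.63 on the log2 scale, with 5.54, 6.64 and 7.11 RPKM in KD and 11.3, 9.05 and 11.2 RPKM in NC ctrl (adjusted p = 0.015 from limma). *Akt2* was no longer called without NC ctrl replicate 1 and without NC ctrl replicate 3, where 2.47% and 2.04% of all genes were lower. *Dyrk2* was called under all 12 alternatives. *Akt1* (0.32, adjusted p = 0.072), *Cdk13* (-0.23, adjusted p = 0.11), *Ccnl1* (0.28, adjusted p = 0.1) and *Top1* (0.29, adjusted p = 0.066, all from limma) did not pass. *Dyrk3*, which dissolves condensates of speckle proteins, was under the filter with 0.782, 0.661 and 0.441 RPKM in KD and 0.0701, 0.0575 and 0.101 RPKM in NC ctrl. The KD to control ratio of *Dyrk3* was 8.26, without overlap. Without the filter on low values it was called (adjusted p = 0.029 from limma), where 1.96% of all genes were higher. *Srpk3*, the muscle paralog, had at most 0.129 RPKM.

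Of 13 phosphatases, chaperones and carriers, 12 were tested, of which 5 rose and 0 fell, against 11.5% and 12.4% of all genes (median log2 fold change 0.23 against 0.03). *Hsp90aa1* (0.60, adjusted p = 0.034) and *Hsp90ab1* (0.60, adjusted p = 0.035), chaperones that bind SRPK1, rose, the latter from 76.5, 86.0 and 90.0 RPKM in NC ctrl to 128, 154 and 105 RPKM in KD. *Ppp1r8*, a nuclear inhibitor of protein phosphatase 1, rose by 0.62 (adjusted p = 0.019), *Ppp1r10*, another of its nuclear partners, by 0.35 (adjusted p = 0.037) and the mRNA exporter *Nxf1* by 0.34 (adjusted p = 0.041, all from limma). The phosphatase subunits *Ppp1ca* (log2 fold change -0.01), *Ppp1cb* (0.02) and *Ppp2ca* (0.00) and the carrier *Tnpo3* (-0.09) did not pass. With scaling by the median of ratios 1 of the 5 passed (*Ppp1r8*), against 8.67% of all genes higher in that setting. Without a filter on low values 0 passed, against 1.96% of all genes. Without any 1 library other than KD replicate 3, 0 passed, against 1.11 to 5.34% of all genes.

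**Figure D5:**
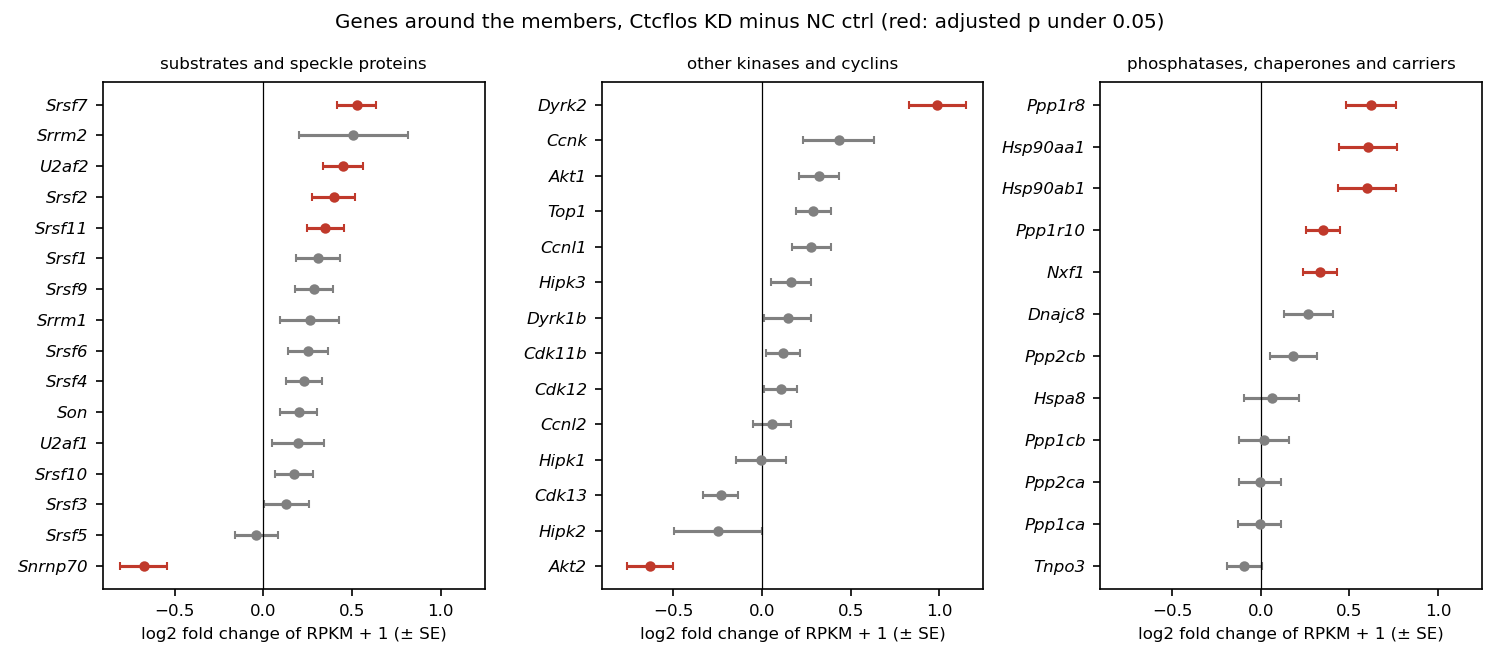
Log2 fold change of RPKM + 1 (KD minus NC ctrl, horizontal axis, bars are SE) of the tested genes of the 3 lists, in red where the adjusted p was under 0.05. Snrnp70 (-0.68) and Akt2 (-0.63) are the called genes on the left, and Dyrk2 (0.99) is the farthest on the right.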

How the data were processed

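Total RNA of 6 libraries (3 per group) was sequenced by the authors with a stranded kit in 150 bp paired-end mode, and they state alignment with STAR to GRCm38, while the counting tool and its use of the strand are not given in the sources used here. The table deposited by the authors holds RPKM per transcript accession. Of 168326 lines, 305 exact repeats were removed. Depth was recovered from low values, of which at least 95.5% were whole reads within 0.1. Gene values, the mean RPKM over accessions, were tested with limma 3.58.1 (R 4.3.3, trend) on log2(RPKM + 1), leaving out genes averaging under 1 RPKM, and adjusted by Benjamini-Hochberg. Shares were tested on log2((RPKM + 0.1)/(gene mean + 0.1)). Scripts were tested on simulated data. Annotation was Gencode vM21, and BLAST+ 2.17.0 found similar transcripts. Members, lists and tests were chosen with earlier results of these data known. All members were named, and of their accessions those with the largest share or, among those tested, a share separate between groups. Other accessions were chosen after their values were seen.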

Additional observations from a re-analysis of the deposited data

How the results depend on the processing

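Of 120 values of a member under an alternative, 95 kept their direction and their side of the threshold, 14 no longer passed, 3 passed only there and 8 changed sign. 1 member was higher in KD, and 0 were without the filter on low values, with scaling by the median of ratios and with the replicate block, and 0 to 4 when 1 library was left out (4 without KD replicate 3, namely *Clk2*, *Clk3*, *Tra2a* and *Tra2b*, and 0 without any other library). Without KD replicate 3, 23.3% of all genes were higher, against 11.5% with all libraries. 2 members were lower, 1 with the replicate block (*Srpk1*), and 1 to 2 with 1 library left out. The count of shares called went from 0 to 1 (AK042106) with diffSplice at either pseudocount. The sign of *Clk1* turned with scaling (-0.04), RefSeq mRNAs alone (-0.11), the accession with the highest mean RPKM (-0.10), without KD replicate 3 (-0.04) and without NC ctrl replicate 3 (-0.05). That of *Dyrk1a* turned with scaling (-0.03), without KD replicate 1 (-0.06) and without NC ctrl replicate 2 (-0.01). With 1 library left out, *Clk1* ranged from -0.05 to 0.05 and *Dyrk1a* from -0.06 to 0.09. The cause was not tested. Over all genes, 2803 were called, 1671 with the replicate block, 1807 without the filter and 369 to 4810 with 1 library left out. Same-numbered libraries correlated at 0.287, -0.288 and -0.418 in their deviations from the group means, so that the numbers were not taken as pairs. Libraries of unlike numbers ranged from -0.238 (KD replicate 1 with NC ctrl replicate 2) to 0.504 (KD replicate 2 with NC ctrl replicate 3). KD replicate 3 with NC ctrl replicate 2 had 0.419. Whether libraries of both groups share a cell preparation was not tested. The replicate block, tried only as an alternative, used the numbers as labelled. It thus joined libraries that correlated negatively for replicates 2 and 3, and its results are no test of a pairing by preparation. At 60.8 to 79.2 mio reads, accessions with few reads limit what the shares can show.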
